A study of Melianthus elongatus with 11 samples.

Results

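Code 2 and code 0 are 2 groups of libraries from the shrub Melianthus minor, also known as M. elongatus, whose nectar is black and is likened in the series title to iron-gall ink, a dark pigment of iron and derivatives of gallic acid. Code 2 holds 3 libraries (2-A, 2-B and 2-C) and code 0 holds 2 (0-A and 0-B), 5 of the 11 libraries of the series. The code is the number or letter that opens a library's name, and it alone set the groups. The filed labels were not used for grouping because they cross the codes: 0-A, 0-B and 1-A are filed as mature leaf, 1-B and 1-C as presecretory nectary, and the 3 of code L as postsecretory nectary. The libraries 2-B and 2-C are filed as secretory nectary, and 2-A has the stage secretory but a title that says presecretory. The sources used here do not say what the codes mean. All plants grew outdoors in 1 arboretum, the labels name no line, treatment or age, and no source says whether the libraries within a code are of different plants. The p-values therefore reflect only how far these libraries scatter, and that scatter may be technical. Field dissections of nectaries left some neighbouring tissue on them, which was taken off later.

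A nectary is a floral gland that draws sugar from the phloem or from its own starch, rebuilds it into sucrose and exports it, with water, to the surface. In Arabidopsis the sucrose leaves through the carrier SWEET9 after synthesis by sucrose phosphate synthases, and the jasmonate-responsive factors MYB21 and MYB24 act in stamens and nectaries. The gallic acid of iron-gall ink comes from the shikimate pathway, glucosyltransferases of the UGT84 group join it to glucose in plants such as oak and pomegranate, and peroxidases and laccases oxidise such phenolics.

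The measurement was the authors' normalised read count of each contig, an assembled transcript sequence, which takes here the name of its closest Arabidopsis gene. Of 68651 contigs listed, 26053 reached 10 or more in at least 2 of the 11 libraries and were tested. Several contigs can share 1 closest locus. Reads may have been divided among similar ones, so how a locus splits over its contigs is uncertain. Whether values are scaled for length is not given, so levels were not compared between contigs. The columns summed to 942092 and 1024523 in code 0 and to 1136746, 1126705 and 1009697 in code 2, while the number of reads behind them is unknown. Across the contigs tested, Pearson's r of log2 values was 0.945 between 0-A and 0-B, 0.878 between 2-A and 2-B, 0.767 between 2-A and 2-C and 0.791 between 2-B and 2-C. It was 0.573 to 0.597 between libraries of code 0 and of code 2. The 3 libraries of code 2 were thus less alike than the pair of code 0, and 2-C stood farthest apart.

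Tissue markers did not follow the filed labels. Markers of leaf tissue (11 loci of Rubisco, its activase, light-harvesting proteins and the Calvin cycle) summed to 3882 and 3759 in 0-A and 0-B, filed as mature leaf, and to 2198, 2865 and 2318 in code 2. Among them the light-harvesting LHCB2.1 went the other way, at 191 and 244.5 in code 0 and 269, 421 and 451 in code 2. LHCA1 did too, at 223 and 241 in code 0 and 320, 327.5 and 276 in code 2. The sums in the code L libraries, filed as postsecretory nectary, were 41371, 36953 and 62788. Markers of nectaries (5 loci: SWEET9, CRC, CWINV4, MYB21 and MYB24) summed to 1912 and 1528 in code 0 and to 11869, 9752 and 7943 in code 2. The higher sum in code 2 came from SWEET9, MYB21 and MYB24. Contigs like CRC, a YABBY factor that nectaries need in Arabidopsis, and like CWINV4 went the other way. Those like CRC summed to 1041 and 1351 in code 0 and to 498, 333 and 94.9 in code 2. Those like CWINV4 summed to 58.2 and 38.3 in code 0 and to 5.81, 14.2 and 0.509 in code 2. Those like STK, a MADS-box factor of ovules, summed to 411 and 667 in code 0 and to 66.6, 94.6 and 45.9 in code 2. Markers of pollen and the tapetum (6 loci) summed to 140 and 117 in code 0 and 135, 71.2 and 73.4 in code 2, and those of xylem and phloem (9 loci) to 237 and 210 and to 139, 180 and 141. The largest of the latter in code 0 was CESA7, at 161.2 and 118 in code 0 and 75.34, 98.52 and 50.98 in code 2. XCP2 and SUC2 went the other way. XCP2 was at 7.495 and 17.24 in code 0 and 24.75, 33.55 and 52.32 in code 2. SUC2 was at 1.211 and 1.194 in code 0 and 7.567, 12.04 and 9.631 in code 2. Markers of epidermis and cuticle (7 loci) summed to 169 and 150 in code 0 and 71.6, 83.7 and 27.8 in code 2. Markers of stomata (5 loci) summed to 76.4 and 129 in code 0 and 156, 183 and 79.0 in code 2, where the groups overlapped. The part of these tissues in the differences below was not tested. In whole-tissue libraries fewer cells of a type and less RNA per cell cannot be told apart. No tissue or stage is given to a code in what follows.

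Many contigs of sugar export were higher in code 2 and many of dividing and growing cells were lower. Contigs like SWEET9, SUS1, SUS4, SPS3F, MYB21, MYB24 and ferritins were among those higher in code 2, whereas plasma membrane proton pumps had as many contigs higher as lower. Most called contigs of the cell cycle, the microtubules, the cellulose synthases, the arabinogalactan proteins, the expansins and the subtilases were lower. The contigs like UGT84A2 and others of the shikimate list ranged widely among the 3 libraries of code 2 and few of them were called. Called contigs of 1 locus mostly moved together, but in 272 of 1228 loci they moved in opposite directions, also among lipoxygenases and the MADS-box factors of the carpel.

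In numbers, limma called 6252 of 26053 contigs (24.0%) with adjusted p below 0.05 and a difference of 1 or more in size on the log2(value + 1) scale. Of these 2990 (11.5%) were higher and 3262 (12.5%) lower in code 2. The counts of each list and family below are to be read beside these shares. All 3 code 2 libraries lay above both of code 0 in 7239 contigs (27.8%) and below both in 6771 (26.0%). Lack of overlap was a condition for naming contigs by size of change, and others were chosen with their values known. In named contigs it is thus no separate result. Dropping 0-A left 3551 calls and dropping 0-B left 3299, fits in which the lone code 0 library is assumed to vary like the others, and there were 5557, 5648 and 7208 without 2-A, 2-B and 2-C. Which direction had more calls depended on the setting. More contigs were higher than lower without 0-B (1702 and 1597), without 2-C (3710 and 3498), after median ratio scaling (3155 and 3108), with library weights (4146 and 3725) and with a filter of 50 (1094 and 860). A core of 2675 contigs (10.3%) was called in the full fit and, with the same sign, in each of the 5 fits that leave out 1 library. It held 1282 higher (4.92%) and 1393 lower (5.35%) contigs and is called stable below. Other scalings, library weights and filters did not enter this definition. At equal column totals 2576 contigs were higher and 3934 lower, so the share of higher calls is 39.6% there and 47.8% as deposited. The median difference of all contigs was 0.05 as deposited. It was -0.07 with totals made equal and 0.10 with median ratio scaling, and no contig called in both turned its sign between settings.

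**Figure D1:**
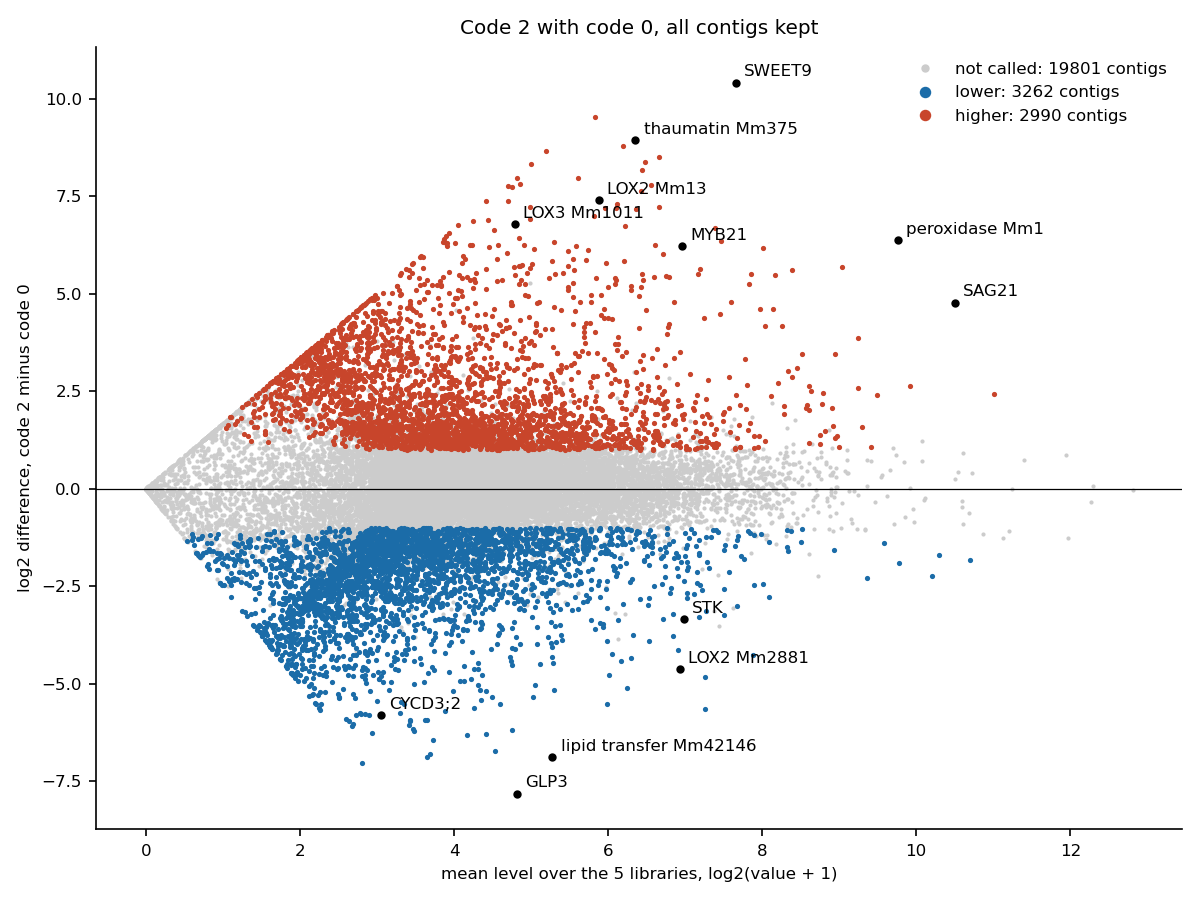
Each point is 1 of 26053 contigs. The x axis gives its mean log2(value + 1) over the 5 libraries, the y axis the log2 difference of code 2 minus code 0, red marks 2990 contigs called higher and blue 3262 called lower, and the slanted edges are formed by contigs at or near 0 in 1 code. Labels give the closest Arabidopsis gene of 12 contigs. SWEET9 has the largest rise and GLP3 the largest fall among the labelled ones.

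The sugar list, of carriers, invertases, sucrose synthases and sucrose phosphate synthases, had 26 of its 87 contigs higher and 9 lower, with 16 and 3 stable, and a median difference of 0.68. Without 2-C the number lower was 17. The SWEET9-like contig was at 0.84 and 2.86 in code 0 and 5216, 2725 and 3321 in code 2, and all 3 code 2 libraries exceeded both of code 0 by more than the spread within either code. It rose by 10.41 on the log2 scale (SE 1.14, limma, adjusted p = 1.10e-04, Mm6, AT2G39060), and its value in code 1 was 2441 ± 553 (SD, n = 3). The SPS3F-like contig, of the enzyme that commits sugar phosphates to sucrose, was at 5.08 and 6.89 in code 0 and 293, 246 and 141 in code 2. It rose by 4.97 on the log2 scale (SE 0.44, limma, adjusted p = 3.57e-05, Mm29, AT1G04920), lowest in 2-C.

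Sucrose synthases cleave sucrose reversibly. Of their 25 contigs 10 were higher and 1 lower (9 and 0 stable, median 1.04). A contig like SUS4 was at 413 and 252 in code 0 and 2011, 2586 and 1580.5 in code 2. That was a rise of 2.64 on the log2 scale (SE 0.43, limma, adjusted p = 0.00131, Mm7, AT3G43190). One like SUS1 was at 252 and 275 in code 0 and 1328, 2078 and 997 in code 2, a rise of 2.41 on the log2 scale (SE 0.35, limma, adjusted p = 5.63e-04, Mm120, AT5G20830), and a scarcer one at 3.61 and 3.92 in code 0 and 132, 61.5 and 106 in code 2, a rise of 4.34 (Mm7610). No library of code 2 overlapped with code 0 in these contigs, which was also a condition for naming contigs by size of change. Other contigs of both genes lay below code 0 in all 3 code 2 libraries. The SUS4-like Mm18418 was at 182 and 172 in code 0 and 59.3, 45.4 and 87.3 in code 2, and its called fall of 1.50 was not stable. The SUS4-like Mm33619, at 360 and 400.5 in code 0 and 156, 124 and 267 in code 2, was not called. Nor was the SUS1-like Mm96209, at 118 and 114 in code 0 and 73, 40.2 and 88.4 in code 2. The cell wall invertase CWINV2, of the group that splits exported sucrose, stood differently. Its contig was at 1572 and 948 in code 0 and 3905, 3438 and 83.5 in code 2. Thus 2-C lay below both code 0 libraries and 2-A and 2-B above them. It was not called (log2 difference -0.23, SE 1.51, limma, adjusted p = 0.931, Mm3, AT3G52600).

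Starch contigs were mostly lower where called. In starch synthesis 1 of 25 contigs was higher and 7 lower (0 and 3 stable, median -0.87), and in starch breakdown 5 of 36 were higher and 12 lower (3 and 4 stable, median -0.92). The contig like APS1, the small subunit of ADP-glucose pyrophosphorylase that feeds starch synthesis, was at 121 and 130.3 in code 0 and 46, 42.1 and 48.1 in code 2 and fell by 1.45 on the log2 scale (SE 0.29, limma, adjusted p = 0.00419, Mm1136, AT5G48300). The breakdown contigs that rose included some of high values. The contig like PWD, a dikinase that phosphorylates starch for its degradation, was at 25.6 and 26.5 in code 0 and 1350.5, 412 and 395 in code 2. It rose by 4.48 on the log2 scale (SE 0.49, limma, adjusted p = 1.11e-04, Mm2704, AT5G26570). The one like the amylase BAM1 was at 108 and 84.3 in code 0 and 1414, 578 and 679 in code 2 and rose by 3.1 on the log2 scale (SE 0.43, limma, adjusted p = 4.41e-04, Mm17, AT3G23920). In both, 2-A was the highest library.

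**Figure D2:**
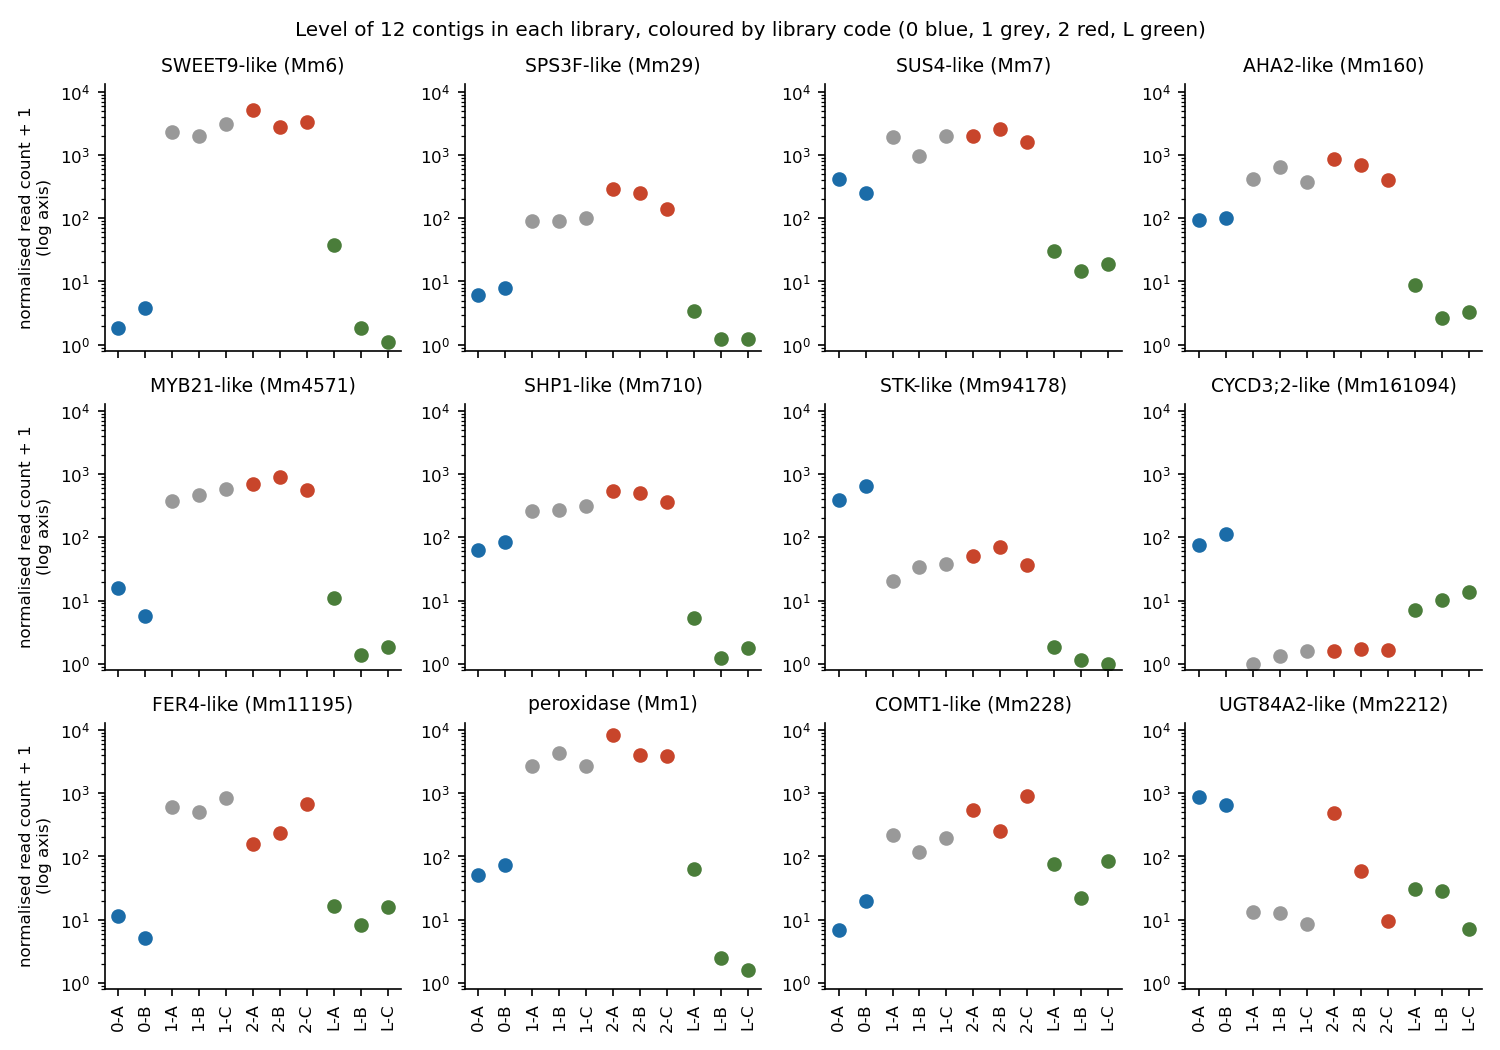
Normalised read count + 1 on a log axis for 12 contigs in each of the 11 libraries, coloured by library code. SWEET9, SPS3F, SUS4, AHA2, MYB21, SHP1, FER4, the peroxidase Mm1 and COMT1 are higher in all 3 code 2 libraries than in both of code 0, STK and CYCD3;2 are lower, and UGT84A2 spreads from 494 in 2-A to 8.59 in 2-C.

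Export needs proton gradients, water and vesicles. In the list of proton pumps, aquaporins and vesicle fusion proteins 32 of 109 contigs were higher and 29 lower, 21 and 18 of them stable (median 0.34). The AHA proteins are plasma membrane proton pumps, and of their 65 contigs 23 were higher and 23 lower (17 and 12 stable, median 0.41). Of 14 contigs like AHA2, 5 were higher and 2 lower, and of 17 like AHA5, 8 were higher and 6 lower. One like AHA2 was at 91.5 and 98.4 in code 0 and 866, 683 and 404 in code 2, a rise of 2.7 on the log2 scale (SE 0.49, limma, adjusted p = 0.00247, Mm160, AT4G30190). Another (Mm8) was listed at 0 in both code 0 libraries and stood at 809, 479 and 172 in code 2, with 2-C the lowest. The AHA8-like contig was at 22.7 and 9.41 in code 0 and 628, 288 and 456 in code 2, a rise of 4.79 on the log2 scale (SE 0.5, limma, adjusted p = 9.04e-05, Mm24846, AT3G42640). In contrast an AHA11-like contig was at 38 and 45.6 in code 0 and 7.18, 8.07 and 4.1 in code 2 and fell by 2.56 on the log2 scale (SE 0.34, limma, adjusted p = 3.42e-04, Mm48291, AT5G62670). For AHA5 the contig Mm14645 rose by 5.43 from 16.1 and 4.95 to 572, 304 and 469, and Mm12232 fell by 1.99 from 125 and 185 to 44.7, 30.5 and 38.4. The sum of all 29 contigs like AHA5 rose by 1.13 (SE 0.31, limma over summed loci, adjusted p = 0.0176), whereas the sum of the 25 like AHA2 differed by 1.00 and was not called (limma over summed loci, adjusted p = 0.0992).

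Aquaporins of the PIP group are water channels of the plasma membrane. Of their 30 contigs 6 were higher and 6 lower (1 and 6 stable, median 0.47). The stable rise was that of a PIP1;5-like contig at 10.3 and 11.8 in code 0 and 65.5, 113 and 113 in code 2, which rose by 2.99 on the log2 scale (SE 0.31, limma, adjusted p = 8.86e-05, Mm6988, AT4G23400). The PIP2;7-like contig was at 396 and 279 in code 0 and 3.91, 6.26 and 22.5 in code 2. This contig fell by 5.15 on the log2 scale (SE 0.59, limma, adjusted p = 1.40e-04, Mm108923, AT4G35100). A PIP2;2-like contig was at 516 and 582 in code 0 and 67.7, 50.9 and 17.5 in code 2. It fell by 3.77 on the log2 scale (SE 0.44, limma, adjusted p = 1.50e-04, Mm17483, AT2G37170). A PIP2;1-like contig was at 340 and 428 in code 0 and 40.6, 34.5 and 14.5 in code 2, a value that fell by 3.75 (Mm48427). Other contigs of these 2 genes did not fall. Mm475, like PIP2;2, was at 330 and 218 in code 0 and 420, 789 and 621 in code 2. Its rise of 1.13 was called (limma, adjusted p = 0.0349) but was not stable. Mm760, like PIP2;1, was at 371 and 315 in code 0 and 529, 701 and 452.5 in code 2 and was not called. A contig like PIP1;5 at 1273 and 894 in code 0 and 1873, 2646 and 1629 in code 2 was not called (log2 difference 0.91, SE 0.38, limma, adjusted p = 0.101, Mm25, AT4G23400), although all 3 code 2 libraries lay above code 0. A tonoplast channel like TIP1;3, found mainly in pollen in Arabidopsis, was at 352 and 356 in code 0 and 2.56, 9.09 and 2.17 in code 2. Its level fell by 6.2 on the log2 scale (SE 0.5, limma, adjusted p = 1.97e-05, Mm145298, AT4G01470). In these 4 contigs that fell, every code 2 library lay below both of code 0, also a condition for naming by size of change.

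The regulators of nectary and flower development moved in both directions: 28 of 108 contigs were higher and 23 lower, 12 and 15 of them stable, with a median of 0.07 that was -0.07 at equal totals. With a pseudocount of 0.1 the number higher was 18. The MYB21-like contig was at 14.7 and 4.64 in code 0 and 687, 883 and 553 in code 2 and rose by 6.21 on the log2 scale (SE 0.75, limma, adjusted p = 1.94e-04, Mm4571, AT3G27810). The MYB24-like contig Mm46278 was at 7.04 and 1.01 in code 0 and 209, 193 and 149 in code 2. The rise amounted to 5.51 on the log2 scale (SE 0.55, limma, adjusted p = 6.67e-05, Mm46278, AT5G40350). In both, the code 0 library 0-A was higher than 0-B, and both were far below code 2. Larger contigs of both genes rested on 0-B: Mm744 like MYB24, at 124 and 7.47 in code 0 and 1767, 1881 and 1202 in code 2, and Mm414 like MYB21, at 102 and 7.51 in code 0 and 1417, 1552 and 1029 in code 2, rose by 5.61 and 5.47 but were not called without 0-B, at 3.66 and 3.68.

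The MADS-box factors that specify carpels and ovules in Arabidopsis split by contig. The STK-like contig was at 394 and 649 in code 0 and 48.9, 69.1 and 35.4 in code 2 and fell by 3.33 on the log2 scale (SE 0.39, limma, adjusted p = 1.70e-04, Mm94178, AT4G09960). Among contigs like SHP1, a factor of carpel and fruit valve margins, Mm710 was at 62.8 and 84.6 in code 0 and 546, 503 and 362 in code 2. It rose by 2.65 on the log2 scale (SE 0.49, limma, adjusted p = 0.00248, Mm710, AT3G58780). Mm180086 was at 196 and 309.8 in code 0 and 3.24, 1.65 and 1.72 in code 2 and fell by 6.31 on the log2 scale (SE 0.41, limma, adjusted p = 8.08e-06, Mm180086, AT3G58780). Another (Mm250579) stood at 91.7 and 180 in code 0, and all 3 code 2 libraries list it at 0. Summed over 21 contigs, SHP1 was at 501 and 745 in code 0 and 857, 887 and 815 in code 2, a difference of 0.48 that was not called (limma over summed loci, adjusted p = 0.587). For AG, which gives stamens and carpels their identity, Mm16898 rose by 2.51 and Mm126296 and Mm358695 fell by 3.20 and 4.50, and the sum of 7 contigs fell by 1.16 (limma over summed loci, adjusted p = 0.00428).

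The contig like CRC was at 932 and 1215 in code 0 and 438, 309.6 and 85.5 in code 2, so that the 3 libraries of code 2 spread over 85.5 to 438, all below code 0. It was not called (log2 difference -2.23, SE 0.81, limma, adjusted p = 0.0647, Mm734, AT1G69180), was called without 2-A at -2.70, and was at 78 ± 32.7 (SD, n = 3) in code 1. A SEP3-like contig, of a factor that joins these MADS-box complexes, was at 123 and 179 in code 0 and 32.6, 65.4 and 35.4 in code 2. This contig fell by 1.79 on the log2 scale (SE 0.33, limma, adjusted p = 0.00281, Mm11252, AT1G24260). The SEP3-like Mm36071 was called in the other direction, at 2.43 (limma, adjusted p = 0.00582), and this call was not stable. A SEP1-like contig was at 226 and 433 in code 0 and 352, 380.5 and 241 in code 2. It was not called (0.03, SE 0.64, limma, adjusted p = 0.984, Mm1125, AT5G15800). Other SEP1-like contigs were called in both directions. Mm301887 rose by 2.43, a stable call, and Mm111053 fell by 1.595, which was not stable.

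Among transcription factor families, which were found by words in the Arabidopsis descriptions, the NAC factors stood at 29 of 67 contigs higher and 1 lower (18 and 0 stable, median 1.21). The contig like NAC25 was at 0.999 and 3.01 in code 0 and 188, 251 and 247 in code 2 and rose by 6.33 on the log2 scale (SE 0.39, limma, adjusted p = 8.08e-06, Mm1326, AT1G61110). One like XND1, a repressor of xylem vessel formation, was at 1.84 and 2.19 in code 0 and 155, 303 and 73 in code 2. Its level rose by 5.66 on the log2 scale (SE 0.5, limma, adjusted p = 3.47e-05, Mm2989, AT5G64530). Of the WRKY factors, often tied to defence, 18 of 57 were higher and 7 lower (13 and 2 stable, median 0.20), and the WRKY11-like and WRKY7-like contigs rose by 4.58 (Mm587) and 3.08 (Mm899). The bHLH factors leaned the other way, with 8 of 120 higher and 31 lower (5 and 16 stable, median -0.51). The FAMA-like contig, of a factor that makes guard cells, was at 34.6 and 76 in code 0 and 0.253, 0.306 and 0.327 in code 2 and fell by 5.34 on the log2 scale (SE 0.41, limma, adjusted p = 1.57e-05, Mm248379, AT3G24140). In contrast the contig like TMM, a receptor of stomatal patterning, was at 0.428 and 1.07 in code 0 and 104, 121 and 33.5 in code 2. The rise amounted to 5.47 on the log2 scale (SE 0.66, limma, adjusted p = 1.90e-04, Mm22137, AT1G80080).

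The MYB factors had 27 of 147 contigs higher and 30 lower, 17 and 22 of them stable (median 0.20). The homeobox factors had 10 of 89 higher and 21 lower (3 and 11 stable, median -0.20). The MADS-box factors had 20 of 72 higher and 15 lower (13 and 8 stable, median 0.36). The ERF and AP2 factors had 10 of 53 higher and 3 lower (3 and 1 stable, median 0.12, and -0.02 at equal totals). Over all contigs tested 11.5% were higher and 12.5% lower, and the homeobox share higher lay near this. The contig like MYB4, a repressor of phenylpropanoid genes in Arabidopsis, was at 1.7 and 2.27 in code 0 and 159, 149.7 and 167 in code 2 and rose by 5.75 on the log2 scale (SE 0.26, limma, adjusted p = 3.21e-06, Mm3434, AT4G38620). The contig like MYB66, known in Arabidopsis as WEREWOLF, a factor of root epidermis, was at 103 and 197 in code 0 and 1.76, 1.91 and 0 in code 2. It fell by 6.16 on the log2 scale (SE 0.48, limma, adjusted p = 1.74e-05, Mm257457, AT5G14750). The 3 code 2 libraries of both contigs lay close together. The AGL15-like contig, of a MADS-box factor of embryos, rose by 3.68 (Mm1009), the contig like the shade-responsive HB2 rose by 3.2 (Mm14331), and that like HB20 fell by 3.27 (Mm201339).

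Of the 85 jasmonate contigs, from lipoxygenases to the JAZ repressors, 21 were higher and 27 lower, 14 and 13 of them stable (median -0.21). Contigs like OPCL1, which activates jasmonate precursors for chain shortening, were called in opposite directions. Mm20892 was at 2.44 and 2.42 in code 0 and 58.8, 57.7 and 63.2 in code 2. It rose by 4.15 on the log2 scale (SE 0.23, limma, adjusted p = 6.62e-06, Mm20892, AT1G20510). Mm2670 was at 116.5 and 56.2 in code 0 and 43, 25.2 and 29.5 in code 2. It fell by 1.325 (limma, adjusted p = 0.0309), a call that was not stable. The one like JAR1, which joins jasmonate to isoleucine, was at 8.47 and 12.2 in code 0 and 144, 147 and 89.1 in code 2. This contig rose by 3.48 on the log2 scale (SE 0.37, limma, adjusted p = 9.94e-05, Mm271, AT2G46370). The LOX1-like contig, of a lipoxygenase that acts outside jasmonate synthesis in Arabidopsis, was at 25 and 30.02 in code 0 and 596, 472 and 117 in code 2 and rose by 3.5 (Mm23), with 2-C the lowest of code 2. The JAZ1-like contig Mm94515 was at 293 and 274 in code 0 and 15.7, 22.3 and 53.3 in code 2 and fell by 3.36 on the log2 scale (SE 0.68, limma, adjusted p = 0.00448, Mm94515, AT1G19180). The JAZ10-like contig Mm13211 was at 179 and 69.2 in code 0 and 34.6, 14.3 and 15.4 in code 2. Its level fell by 2.44 on the log2 scale (SE 0.45, limma, adjusted p = 0.00251, Mm13211, AT5G13220).

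In the abscisic acid list 9 of 20 contigs were higher and 3 lower (7 and 2 stable, median 0.85). The contig like NCED9, of the cleavage step that limits abscisic acid synthesis, was at 4.000 and 2.33 in code 0 and 17, 27.3 and 76.9 in code 2 and rose by 3.06 on the log2 scale (SE 0.53, limma, adjusted p = 0.00176, Mm5133, AT1G78390), whereas the contig like ABA2, of a later step, was at 56.8 and 73.8 in code 0 and 16, 21.2 and 23.6 in code 2 and fell by 1.64 on the log2 scale (SE 0.25, limma, adjusted p = 8.26e-04, Mm25843, AT1G52340). An aldehyde oxidase contig like AAO1 (Mm114371) was listed at 0 in both code 0 libraries, stood at 184, 421 and 15.3 in code 2 and was at 3184 ± 1240.2 (SD, n = 3) in code 1. The contig like CYP707A4, which breaks abscisic acid down, was at 28.7 and 38 in code 0 and 443, 334 and 59.7 in code 2 and rose by 2.61 (Mm75), a call that did not hold without 0-A (2.42), without 0-B (2.81), without 2-A (2.07) and without 2-B (2.27). The ethylene-forming oxidase contig like ACO4 was at 14.4 and 52.4 in code 0 and 452, 277 and 202 in code 2 and rose by 3.36 on the log2 scale (SE 0.59, limma, adjusted p = 0.00202, Mm237, AT1G05010), and it was 1 of 2 contigs of the ethylene list, both higher and stable. In auxin transport 2 of 9 contigs were higher and 6 lower (0 and 4 stable, median -2.04). The AUX1-like contig, of an auxin uptake carrier, was at 57.3 and 58.6 in code 0 and 10.2, 9.59 and 10.4 in code 2 and fell by 2.41 on the log2 scale (SE 0.28, limma, adjusted p = 1.52e-04, Mm17265, AT2G38120), while the LAX3-like contig rose by 1.49 (Mm2565), a call lost without 0-A (1.58) or 0-B (1.4).

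Contigs of cell division were lower in code 2. Of the 35 contigs of the cell cycle and DNA replication list 1 was higher and 21 were lower, 15 of the latter stable, with a median of -1.93. The contig like CYCD3;2, a cyclin that drives entry into division, was at 73.7 and 114 in code 0 and 0.59, 0.729 and 0.671 in code 2, with code 2 close to 0 in every library, and fell by 5.8 on the log2 scale (SE 0.38, limma, adjusted p = 8.08e-06, Mm161094, AT5G67260). The contig like TSO2, a ribonucleotide reductase subunit that supplies DNA precursors, was at 44.8 and 55.1 in code 0 and 2.15, 1.23 and 0.16 in code 2. In code 2 it fell by 4.66 on the log2 scale (SE 0.5, limma, adjusted p = 1.03e-04, Mm117503, AT3G27060). The contig like the mitotic kinase CDKB1;2 was at 46.6 and 20.3 in code 0 and 1.74, 1.21 and 3.34 in code 2 and fell by 3.42 on the log2 scale (SE 0.42, limma, adjusted p = 2.24e-04, Mm156666, AT2G38620). The ANT-like contig, of a factor of organ growth, was at 84.2 and 95.9 in code 0 and 94.6, 106 and 61.8 in code 2, the groups overlapping, and was not called (-0.07, SE 0.31, limma, adjusted p = 0.884, Mm13106, AT4G37750).

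Several families that serve division and wall growth had more contigs lower than higher. Of 148 histone contigs 8 were higher and 51 lower (2 and 33 stable, median -0.44), and of 148 contigs of kinesins, tubulins and other microtubule proteins 2 were higher and 72 lower (0 and 41 stable, median -1.20). A histone H2A contig was at 56.8 and 102 in code 0 and 0.282, 1.36 and 0.816 in code 2. It fell by 5.45 on the log2 scale (SE 0.51, limma, adjusted p = 4.67e-05, Mm325777, AT5G27670). A tubulin contig was at 243 and 296 in code 0 and 2.87, 2.93 and 35 in code 2, with 2-C above the other code 2 libraries, and fell by 5.04 on the log2 scale (SE 0.81, limma, adjusted p = 0.00116, Mm365312, AT4G14960). Of the 76 contigs of cellulose synthases and their relatives 3 were higher and 36 lower (2 and 19 stable, median -1.11), and of 23 expansins, which loosen walls, 3 were higher and 14 lower (3 and 9 stable, median -1.70). The contig like EXPA6 was at 147 and 115 in code 0 and 2.72, 1.75 and 13.5 in code 2 and fell by 4.63 on the log2 scale (SE 0.59, limma, adjusted p = 2.53e-04, Mm126119, AT2G28950). For EXPA15, Mm7952 rose by 4.57 while Mm4268 fell by 2.53.

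Arabinogalactan proteins, glycoproteins of the cell surface, had 3 of 56 contigs higher and 28 lower (1 and 16 stable, median -1.43). The contig like AGP3 was at 289 and 494 in code 0 and 6.04, 0.324 and 3.95 in code 2. This contig fell by 6.72 on the log2 scale (SE 0.64, limma, adjusted p = 4.90e-05, Mm134411, AT4G40090). Subtilases, secreted proteases, had 3 of 29 higher and 17 lower (1 and 13 stable), with a median of -2.19. One of them was at 277 and 236 in code 0 and 26.8, 30.2 and 13.8 in code 2 and fell by 3.46 on the log2 scale (SE 0.37, limma, adjusted p = 9.57e-05, Mm2287, AT2G05920). Lipid transfer proteins had 5 of 44 higher and 16 lower (3 and 11 stable, median -1.08). The contig Mm42146 was at 697 and 659.8 in code 0 and 22.5, 5.93 and 0.176 in code 2, spreading from 22.5 to 0.176 within code 2, and fell by 6.88 on the log2 scale (SE 0.99, limma, adjusted p = 5.70e-04, Mm42146, AT2G44290), while Mm897 was at 9.88 and 8.97 in code 0 and 566, 676 and 3162 in code 2. Its level rose by 6.68 on the log2 scale (SE 0.83, limma, adjusted p = 2.32e-04, Mm897, AT4G33355). In the epidermis and cuticle list 1 of 21 contigs was higher and 11 lower (1 and 5 stable, median -1.59). The contig like LTPG1, a lipid transfer protein of the cuticle, fell by 3.33 (Mm227032). The GDSL lipases had 9 of 39 higher and 17 lower (5 and 14 stable, median -1.18).

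More pectin enzyme contigs were lower than higher: 16 of 148 were higher and 46 lower (12 and 27 stable, median -1.10), yet 3 of the 12 largest stable rises of all annotated contigs were pectin methylesterase or inhibitor contigs. Mm16 was at 0.719 and 1.08 in code 0 and 1713, 1121 and 306 in code 2 and rose by 8.79 on the log2 scale (SE 0.96, limma, adjusted p = 1.10e-04, Mm16, AT1G23200). Mm11, like the same locus, was at 1.89 and 1.64 in code 0 and 2468, 1288 and 235 in code 2 and rose by 8.36 (Mm11), and Mm285 was at 1.91 and 1.94 in code 0 and 1809.5, 1140.1 and 281 in code 2 and rose by 8.16 (Mm285). In all 3 the order within code 2 was 2-A, then 2-B, then 2-C. Among the falls, a pectin lyase-like contig (Mm7024) was at 202 and 437 in code 0 and 24.4, 6.75 and 1.09 in code 2 and fell by 5.33 (Mm7024). The xyloglucan enzymes, which remodel walls, had 7 of 33 higher and 4 lower (7 and 3 stable, median -0.07), and the contig like XTH30 was at 0.166 and 0.198 in code 0 and 178, 58.4 and 72.8 in code 2. In code 2 it rose by 6.29 on the log2 scale (SE 0.52, limma, adjusted p = 2.37e-05, Mm1063, AT1G32170).

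**Figure D3:**
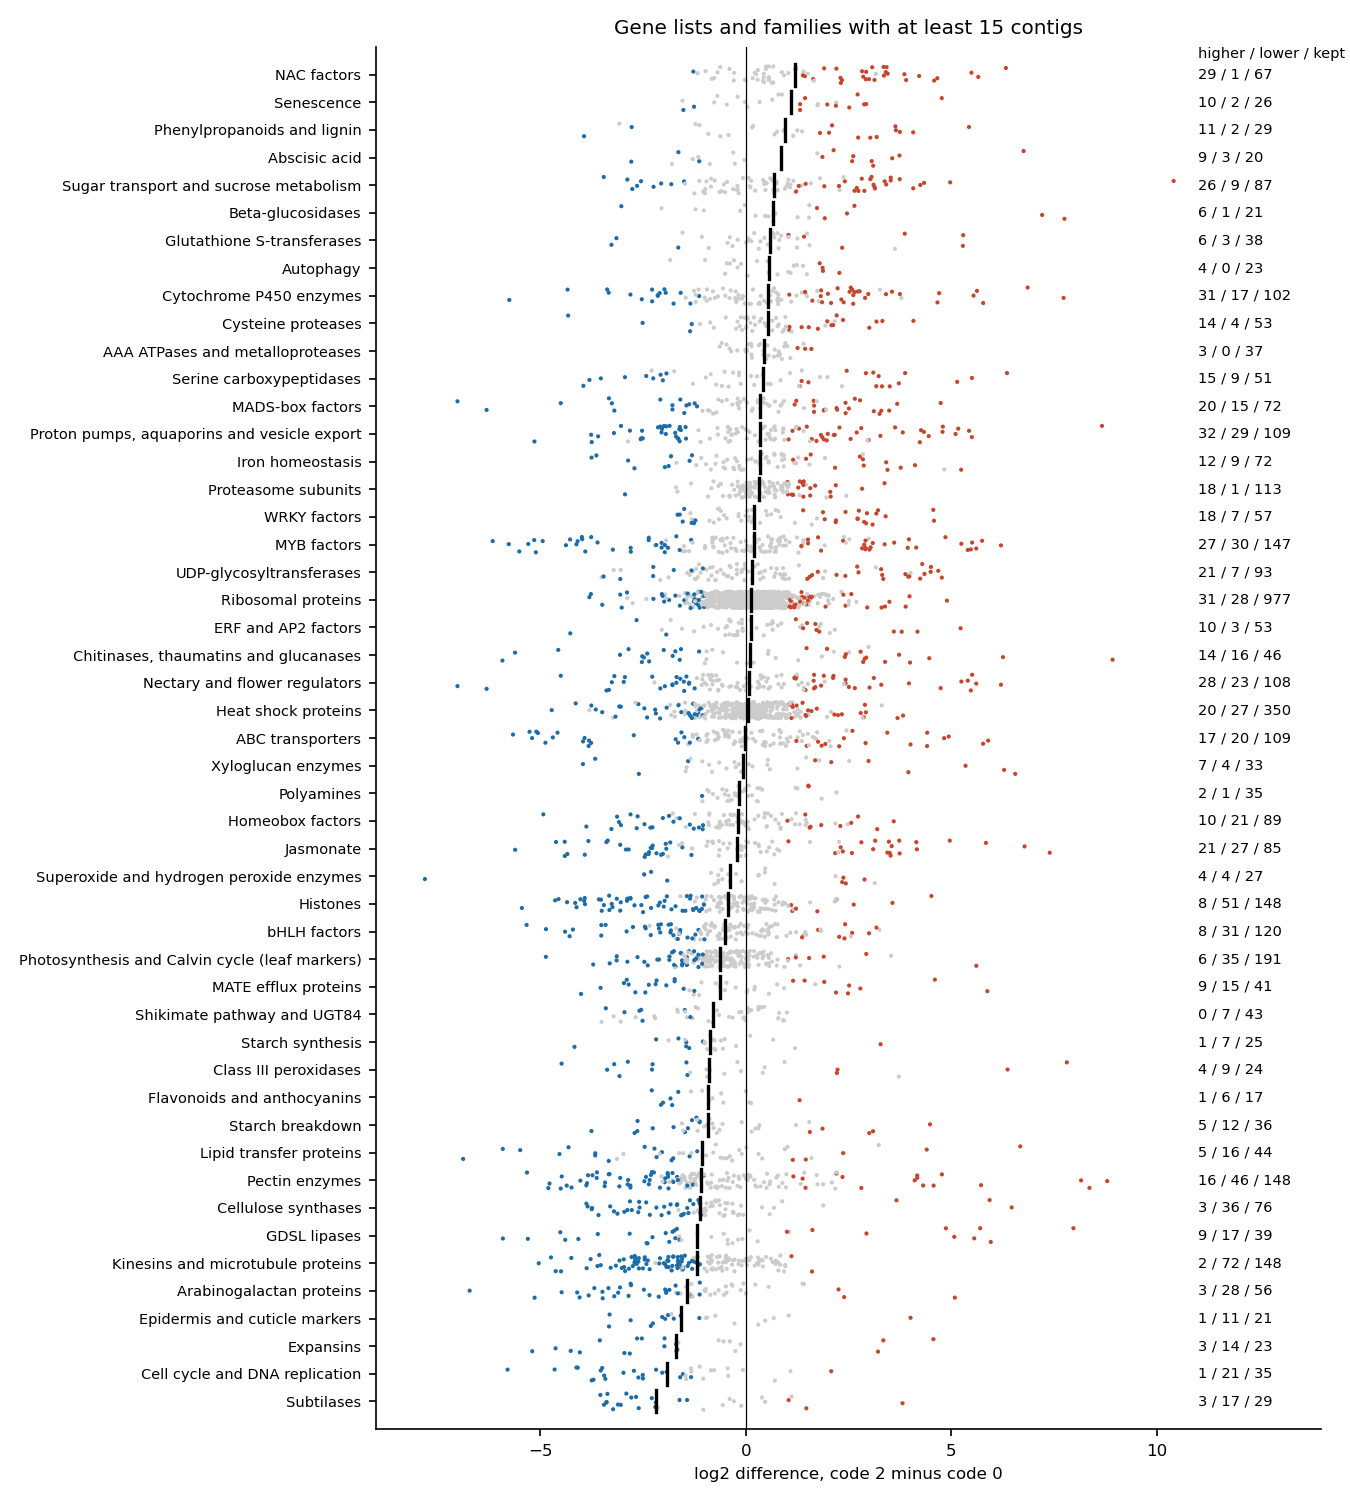
Log2 differences of code 2 minus code 0 for every contig of the gene lists and families with at least 15 contigs, ordered by median (black bar). Red points were called higher, blue lower and grey not called, with the counts at the right. NAC factors lead with 29 higher and 1 lower of 67, and subtilases end with 3 higher and 17 lower of 29.

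The phenolic pathways varied among the 3 libraries of code 2. In the shikimate list, which ends with the UGT84 enzymes, limma called 0 of 43 contigs higher (0 at an unadjusted p under 0.05) and 7 lower, 2 of them stable, with a median of -0.81. Without 2-A the number lower was 22 and the median -1.26. The mean log2 value of the list lay below that of code 0 by 0.245 in 2-A, by 1.007 in 2-B and by 1.66 in 2-C. The mean of the 5 pollen and tapetum contigs had the same order, at 0.088, -1.061 and -1.737 from code 0, and its part in the shikimate values was not tested. The UGT84A2-like contig was at 856 and 656 in code 0 and 494, 58.7 and 8.59 in code 2, so that 2-A lay near code 0 and 2-C far below it. It was not called (log2 difference -3.51, SE 1.24, limma, adjusted p = 0.058, Mm2212, AT3G21560), was called without 2-A at -4.97, and was at 10.6 ± 2.54 (SD, n = 3) in code 1.

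The UGT84A1-like contig Mm427 followed the same order, at 833 and 581 in code 0 and 495, 112 and 9.77 in code 2, and was called only without 2-A (-4.32) among the fits that leave out 1 library. The UGT84A1-like Mm766 and Mm9293 had this order too. In the UGT84A1-like Mm2414, Mm3215, Mm8791 and Mm18040, 2-C lay above 2-B. The DHS1-like contig, of the enzyme that opens the shikimate pathway, was at 509 and 365 in code 0 and 547, 144 and 9.25 in code 2, with 2-A above both libraries of code 0 and 2-C below them. It was not called (-2.21, SE 1.24, limma, adjusted p = 0.216, Mm1875, AT4G39980) but was called without 2-A at -3.48. A contig like MEE32, which makes shikimate, was at 254 and 202 in code 0 and 709, 342 and 106 in code 2. It was not called (0.38, SE 0.63, limma, adjusted p = 0.697, Mm37, AT3G06350). The MEE32-like Mm5660, at 92 and 74.9 in code 0 and 20, 10.5 and 1.04 in code 2, was called lower. So were the MEE32-like Mm29250 and Mm95016, and none of these calls was stable. Mm139, also like MEE32, was at 517 and 409 in code 0 and 408, 134 and 55.8 in code 2. Neither Mm139 nor the MEE32-like Mm4488, which overlapped between the codes, was called. The order of Mm427 was not shared by the whole list. All contigs like the shikimate kinases SK1 and SK2, and the DHS3-like Mm50598, had the reverse order, lowest in 2-A and highest in 2-C. The SK1-like Mm212102 was at 7.968 and 7.808 in code 0 and 4.375, 10.81 and 87.34 in code 2. None of these contigs was called. A contig like EMB1144, a chorismate synthase that closes the pathway, followed neither order. It was at 81.4 and 126 in code 0 and 8.32, 21.7 and 9.87 in code 2. It fell by 2.96 on the log2 scale (SE 0.39, limma, adjusted p = 3.32e-04, Mm73957, AT1G48850), a stable call.

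Past chorismate, phenylpropanoid contigs, of the branch that leads to lignin and phenolic esters, were mostly higher where called: 11 of 29 were higher and 2 lower (8 and 1 stable, median 0.95). The contig like PAL2, the phenylalanine ammonia-lyase that opens the branch, was at 7.51 and 7.61 in code 0 and 159, 53.1 and 139.8 in code 2 and rose by 3.64 on the log2 scale (SE 0.49, limma, adjusted p = 3.57e-04, Mm270, AT3G53260). The PAL1-like contig was at 2.64 and 2.23 in code 0 and 97.3, 52.6 and 14.2 in code 2. It rose by 3.65 on the log2 scale (SE 0.75, limma, adjusted p = 0.00482, Mm361, AT2G37040). The contig like CYP98A3, a ring hydroxylase, was at 2.05 and 1.3 in code 0 and 45.4, 16.3 and 55.5 in code 2 and rose by 3.75 on the log2 scale (SE 0.56, limma, adjusted p = 7.23e-04, Mm3967, AT2G40890). Of contigs like the methyltransferase COMT1, Mm228 was at 5.77 and 18.7 in code 0 and 551, 248 and 896 in code 2 and rose by 5.43 on the log2 scale (SE 0.69, limma, adjusted p = 2.56e-04, Mm228, AT5G54160), while Mm22818 was at 66 and 94.6 in code 0 and 15.8, 2.13 and 1.72 in code 2 and fell by 3.94 (Mm22818). Their sum with 7 further contigs rose by 2.26 (SE 0.44, limma over summed loci, adjusted p = 0.00267). No code 2 library overlapped with code 0 in these contigs, which was also a condition for naming contigs by size of change.

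In the flavonoid list 1 of 17 contigs was higher and 6 were lower (0 and 1 stable, median -0.91). The F3H-like contig, of a hydroxylase of flavanones, was at 209 and 238 in code 0 and 1137, 317 and 39.4 in code 2, above code 0 in 2-A and 2-B and below it in 2-C, and was not called (0.13, SE 1.11, limma, adjusted p = 0.948, Mm39, AT3G51240). The CHI-like contig, of chalcone isomerase, was at 111 and 124 in code 0 and 419, 279.7 and 212 in code 2 and rose by 1.31 (Mm642), a call lost without 0-A (1.23). The contig like TT8, a bHLH factor of flavonoid genes, was at 39.4 and 24.9 in code 0 and 9.81, 6.88 and 4.4 in code 2. This contig fell by 2.07 on the log2 scale (SE 0.37, limma, adjusted p = 0.00202, Mm7043, AT4G09820).

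The UDP-glycosyltransferases, serine carboxypeptidases and beta-glucosidases had more stable rises than stable falls. These families were found by words in the descriptions, and which of their members act on phenolics was not tested. Of 93 UDP-glycosyltransferases 21 were higher and 7 lower (15 and 4 stable, median 0.15, and 0.00 at equal totals). Without 2-A and without 2-C the number lower was 14 and 12. The contig like UGT74F2, which glucosylates salicylate in Arabidopsis, was at 2.81 and 4.7 in code 0 and 86.9, 86.7 and 265 in code 2 and rose by 4.77 on the log2 scale (SE 0.54, limma, adjusted p = 1.28e-04, Mm2634, AT2G43820). Of 51 serine carboxypeptidase-like contigs, a family of peptidases and acyltransferases, 15 were higher and 9 lower (10 and 7 stable, median 0.41, 14 lower without 2-A). Mm3812 was at 9.52 and 13.9 in code 0 and 619.8, 730.3 and 2373 in code 2 and rose by 6.36 on the log2 scale (SE 0.95, limma, adjusted p = 7.08e-04, Mm3812, AT5G36180), with 2-C the highest. Mm49 was at 10.9 and 16.8 in code 0 and 648, 340.4 and 1299 in code 2 and rose by 5.5 (Mm49). In contrast Mm3135, like SCPL18, was at 265 and 146 in code 0 and 55.2, 18.3 and 0.908 in code 2 and fell by 3.95 (Mm3135), a call lost without 0-A (-3.52) or 0-B (-4.39). Without 2-C the difference was -2.58.

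Of 21 beta-glucosidases, which release glucose from conjugates, 6 were higher and 1 lower (3 and 0 stable, median 0.67). The contigs like BGLU16 stood at 5.31 and 3.02 in code 0 and 679, 1077 and 565 in code 2 for Mm31 and at 0.062 and 0 in code 0 and 244, 374 and 119 in code 2 for Mm390. They rose by 7.21 and 7.75 (limma, adjusted p = 3.683e-05 and 0.0006292), and every library of code 2 was far above code 0. In code 1 the first was at 687 ± 295 (SD, n = 3) and the second at 15.2 ± 14.1 (SD, n = 3).

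Laccases, copper enzymes that oxidise phenolics, had 1 of 14 contigs higher and 1 lower, neither stable. Their mean log2 value differed from that of code 0 by 1.64 in 2-A, 0.75 in 2-B and -2.18 in 2-C. The contig Mm355 (closest to AT5G48100) was at 17.9 and 8.96 in code 0 and 246, 345 and 7.62 in code 2 and was not called (2.72, SE 1.22, limma, adjusted p = 0.124, Mm355, AT5G48100), but was called without 2-C at 4.42. The LAC14-like contig Mm96 was at 144 and 80.6 in code 0 and 396, 93.6 and 3.26 in code 2 and was not called either (-1.0, SE 1.51, limma, adjusted p = 0.661, Mm96, AT5G09360). Class III peroxidases, secreted enzymes that use hydrogen peroxide to oxidise phenolics, had 4 of 24 higher and 9 lower (2 and 6 stable, median -0.91). Mm1 was at 50.8 and 71.3 in code 0 and 8313, 4011 and 3885 in code 2 and rose by 6.37 on the log2 scale (SE 1.2, limma, adjusted p = 0.00287, Mm1, AT4G16270), highest in 2-A. Mm276 was at 0 and 0.27 in code 0 and 537, 236 and 126 in code 2 and rose by 7.81 on the log2 scale (SE 0.77, limma, adjusted p = 6.13e-05, Mm276, AT4G26010), while Mm562 was at 1603 and 1794 in code 0 and 292, 258 and 555 in code 2. Its level fell by 2.29 on the log2 scale (SE 0.38, limma, adjusted p = 0.00143, Mm562, AT4G21960).

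**Figure D4:**
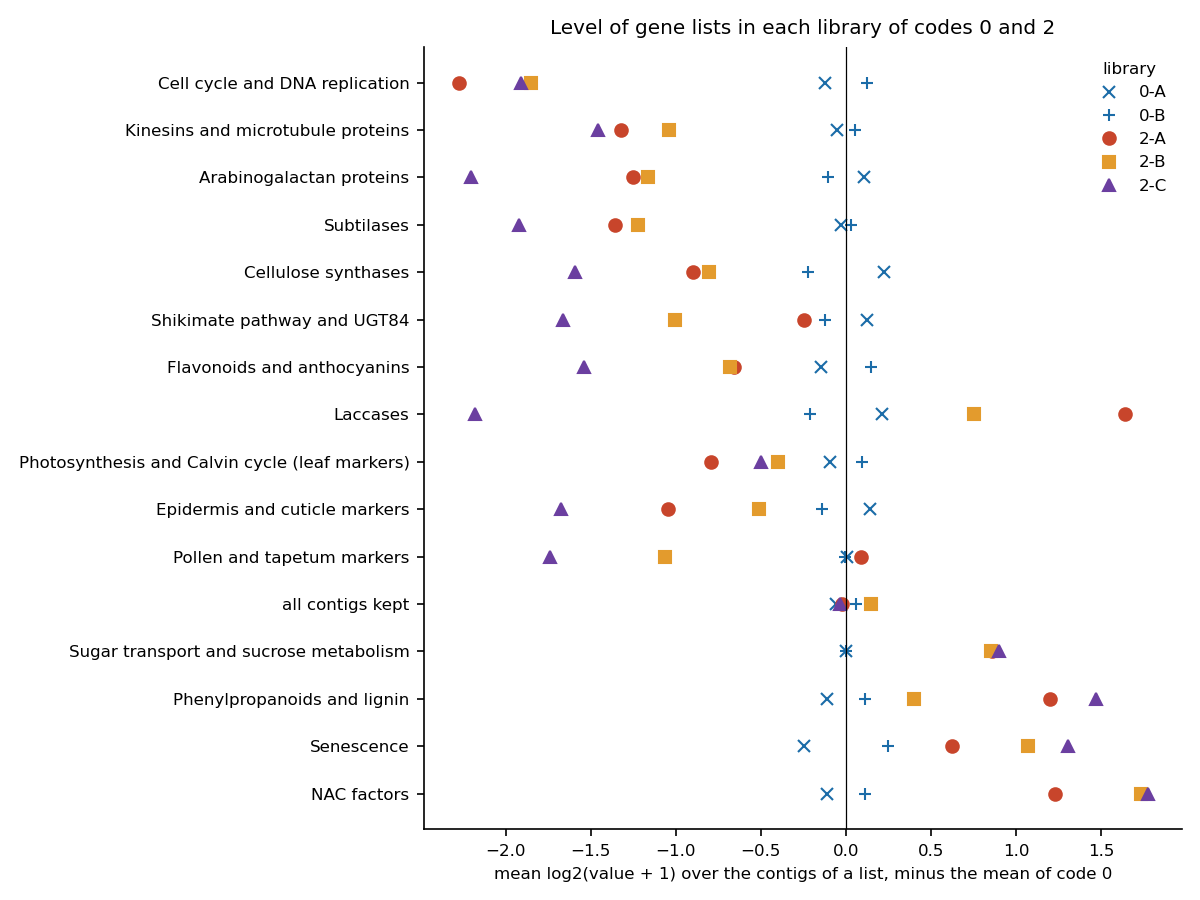
Mean log2(value + 1) over the contigs of 15 lists and of all contigs kept, in each library of codes 0 and 2, minus the mean of code 0. The shikimate list goes from -0.245 in 2-A to -1.66 in 2-C and the laccases from 1.64 to -2.18, whereas the sugar list lies between 0.85 and 0.90 in all 3 libraries of code 2.

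In the list of enzymes that make or remove superoxide and hydrogen peroxide, 4 of 27 contigs were higher and 4 lower (2 and 2 stable, median -0.39). A contig like GLP3, a germin-like protein, was at 538 and 972 in code 0 and 3.07, 3.17 and 0.97 in code 2 and fell by 7.81 on the log2 scale (SE 0.48, limma, adjusted p = 8.08e-06, Mm200630, AT5G20630), the largest fitted fall of all contigs tested. It was at 728.5, 929.1 and 675.0 in the libraries of code L. The CAT1-like contig Mm163, of a catalase that removes hydrogen peroxide, was at 2278 and 1670 in code 0 and 321, 839.8 and 512 in code 2 and fell by 1.91 (Mm163), a call lost without 0-A (-1.69) or 0-B (-2.14). Another, Mm15853, was at 8.67 and 13.1 in code 0 and 52.5, 49.95 and 91 in code 2 and rose by 2.43 on the log2 scale (SE 0.32, limma, adjusted p = 3.34e-04, Mm15853, AT1G20630).

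Of the iron homeostasis contigs, which cover uptake, chelation and storage, 12 of 72 were higher and 9 lower (7 and 5 stable, median 0.34). Ferritins store iron, mainly in plastids. The FER4-like contig was at 10.6 and 4.17 in code 0 and 154, 238 and 671 in code 2. In code 2 it rose by 5.24 on the log2 scale (SE 0.58, limma, adjusted p = 1.15e-04, Mm11195, AT2G40300). The FER2-like contig was at 18.1 and 11.3 in code 0 and 193, 169 and 569 in code 2 and rose by 4.12 on the log2 scale (SE 0.48, limma, adjusted p = 1.62e-04, Mm815, AT3G11050). The FER1-like contig Mm4874 was at 72.5 and 102 in code 0 and 875, 519.8 and 1883 in code 2. It rose by 3.45 on the log2 scale (SE 0.58, limma, adjusted p = 0.00152, Mm4874, AT5G01600). In these ferritins 2-C was the highest library, closest to code 1, where FER4, FER2 and FER1 were at 642 ± 167 (SD, n = 3), 611 ± 131 (SD, n = 3) and 2067 ± 402 (SD, n = 3). Another FER1-like contig, Mm223, highest in 2-A, was at 354 and 300.4 in code 0 and 2015, 852 and 542 in code 2 and rose by 1.58 (Mm223), a call that did not hold without 0-A (1.70), without 0-B (1.46), without 2-A (1.06) and without 2-B (1.68).

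Of the 17 ferritin contigs 7 were higher and the others were not called. Of the other 55 contigs of the list 5 were higher and 9 lower (2 and 5 stable). The contig like FRO2, a reductase of ferric iron at the root surface of Arabidopsis, was at 0.855 and 0.838 in code 0, had a mean of 13.3 ± 6.14 (SD, n = 3) in code 2 with 8.47 in the lowest library, and rose by 2.87 on the log2 scale (SE 0.44, limma, adjusted p = 7.95e-04, Mm14703, AT1G01580). The contig like IREG3, a metal transporter, was at 1.96 and 0.249 in code 0 and 13.3, 13.9 and 11.4 in code 2 and rose by 2.85 (Mm7065). An OPT3-like contig was at 26 and 21.1 in code 0 and 1.31, 0.45 and 1.25 in code 2 and fell by 3.64 on the log2 scale (SE 0.39, limma, adjusted p = 9.43e-05, Mm78887, AT4G16370). Every library of code 2 stood apart from code 0 in these 3 contigs. Other contigs of the same genes went differently. The OPT3-like Mm5105 was at 2.56 and 5.59 in code 0 and 14.6, 16.1 and 7.97 in code 2. Its rise of 1.465 was called but not stable. The FRO2-like Mm13724 overlapped between the codes, and the IREG3-like Mm12797 lay below code 0 in all 3 code 2 libraries. Neither Mm13724 nor Mm12797 was called. The contig like NAS1, which makes the chelator nicotianamine, was at 191 and 207 in code 0 and 17.6, 28.3 and 4.89 in code 2 and fell by 3.76 on the log2 scale (SE 0.53, limma, adjusted p = 4.73e-04, Mm27542, AT5G04950). The contig like IRT3, a zinc and iron transporter, was at 38.6 and 50.3 in code 0 and 12.9, 12.7 and 6.89 in code 2. This contig fell by 1.97 on the log2 scale (SE 0.31, limma, adjusted p = 0.00105, Mm43038, AT1G60960). In the NAS1-like and IRT3-like contigs all 3 code 2 libraries lay below code 0, and 2-C was the lowest.

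Senescence contigs were mostly higher where called. In the senescence list 10 of 26 were higher and 2 lower (3 and 0 stable, median 1.1), and without 2-B only 4 were higher. The SAG21-like contig, of a small protein induced by ageing and stress, was at 172 and 229 in code 0 and 6349, 4539 and 5563 in code 2 and rose by 4.77 on the log2 scale (SE 0.54, limma, adjusted p = 1.37e-04, Mm22, AT4G02380). The contig like GLN1;1, a cytosolic glutamine synthetase, was at 127 and 153 in code 0 and 1543, 1363 and 244 in code 2 and rose by 2.52 (Mm26), a call that did not hold without 0-A (2.38), without 0-B (2.65), without 2-A (2.04) and without 2-B (2.13). Autophagy contigs were higher in 4 of 23 and lower in 0 (0 at an unadjusted p under 0.05 in limma, 0 stable in either direction), with a median of 0.55. Cysteine proteases were higher in 14 of 53 and lower in 4 (6 and 1 stable, median 0.54), and the contig like CP1 was at 6.92 and 5.34 in code 0 and 72.8, 49.3 and 95.1 in code 2. Its level rose by 3.32 on the log2 scale (SE 0.37, limma, adjusted p = 1.16e-04, Mm3698, AT4G36880).

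Chitinases, thaumatins and glucanases, secreted proteins that many plants make against microbes, had 14 of 46 contigs higher and 16 lower (7 and 8 stable, median 0.11, and -0.02 at equal totals). A thaumatin contig (Mm375) was at 1.01 and 0.987 in code 0 and 1060.5, 822 and 1046 in code 2 and rose by 8.93 on the log2 scale (SE 0.43, limma, adjusted p = 3.87e-06, Mm375, AT1G20030). A contig like the glucanase BG3 was at 0 and 0.164 in code 0 and 595, 857 and 1007 in code 2. In code 2 it rose by 9.54 on the log2 scale (SE 0.85, limma, adjusted p = 3.48e-05, Mm193, AT3G57240). A second thaumatin contig moved the other way, at 109.8 and 145 in code 0 and 1.02, 1.78 and 0.625 in code 2. It fell by 5.92 on the log2 scale (SE 0.4, limma, adjusted p = 8.55e-06, Mm247056, AT1G18250). No library of code 2 overlapped with code 0 in these contigs, which was also a condition for naming contigs by size of change.

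Oxidation and transport families had contigs called in both directions. Over all contigs tested 11.5% were higher and 12.5% lower. The counts of the ABC transporters and glutathione S-transferases lay near these shares and do not set those families apart. Of 102 cytochrome P450 contigs 31 were higher and 17 lower (18 and 8 stable, median 0.55). A contig of the CYP71B group was at 0.067 and 0.108 in code 0 and 151, 173 and 467 in code 2 and rose by 7.73 on the log2 scale (SE 0.54, limma, adjusted p = 9.76e-06, Mm5398, AT3G26300). A contig closest to AT5G05690, the brassinosteroid enzyme CPD, was at 109 and 105 in code 0 and 0, 0.067 and 6.49 in code 2. It fell by 5.76 on the log2 scale (SE 0.74, limma, adjusted p = 2.83e-04, Mm167433, AT5G05690). Of 38 glutathione S-transferases 6 were higher and 3 lower (2 and 2 stable, median 0.59). ABC transporters had 17 of 109 higher and 20 lower (11 and 13 stable, median -0.01, and 0.04 after median ratio scaling), and MATE carriers 9 of 41 and 15 (3 and 6 stable, median -0.64, 4 higher without 2-A and 5 without 2-B). The contig like ABCC4 was at 1.95 and 0.384 in code 0 and 102, 147 and 113 in code 2 and rose by 5.9 on the log2 scale (SE 0.41, limma, adjusted p = 9.76e-06, Mm41, AT2G47800), and that like ABCC3 was at 47.5 and 61.2 in code 0 and 0.607, 1.26 and 0.794 in code 2 and fell by 4.88 on the log2 scale (SE 0.37, limma, adjusted p = 1.36e-05, Mm33831, AT3G13080).

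Photosynthesis contigs, which served as leaf markers above, had 6 of 191 higher and 35 lower (3 and 13 stable, median -0.62), and 23 lower without 2-A. The contig like GAPA, of the Calvin cycle, was at 135 and 121 in code 0 and 32.9, 39 and 18.3 in code 2. This contig fell by 2.12 on the log2 scale (SE 0.31, limma, adjusted p = 7.03e-04, Mm6794, AT3G26650). The contig like CA2, a carbonic anhydrase, was at 4.58 and 2.77 in code 0 and 196, 107 and 525 in code 2 and rose by 5.61 on the log2 scale (SE 0.58, limma, adjusted p = 7.98e-05, Mm2176, AT5G14740). The contig like LHCB1.5 was at 486 and 472 in code 0 and 262, 439 and 199 in code 2, below code 0 in all 3 libraries of code 2, and was not called (-0.75, SE 0.45, limma, adjusted p = 0.247, Mm2141, AT2G34420). Ribosomal proteins had 31 of 977 higher and 28 lower (median 0.14, and -0.01 at equal totals, 104 higher without 2-C, and 20 higher and 43 lower at equal totals), heat shock proteins 20 of 350 and 27 (median 0.04, and -0.08 at equal totals, 32 higher without 2-C and 13 without 2-B), and proteasome subunits 18 of 113 and 1 (median 0.32, 10 higher without 2-B).

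Other contigs with large stable changes belonged to scattered functions. A glyoxalase I family contig was at 1.36 and 2.7 in code 0 and 724, 1454 and 1165 in code 2. Its level rose by 8.5 on the log2 scale (SE 0.52, limma, adjusted p = 8.08e-06, Mm294, AT1G80160). A GDSL lipase contig was at 0.787 and 0.773 in code 0 and 507, 296 and 590.1 in code 2 and rose by 7.97 (Mm287), and one like a flowering-promoting factor was at 0 and 0.052 in code 0 and 347, 304 and 158 in code 2 and rose by 7.96 (Mm2424). A contig closest to AT1G66200 (Mm379), described as a hypothetical protein, was listed at 0 in both code 0 libraries and was at 601, 275 and 197 in code 2. On the other side, an aspartyl protease contig was at 192 and 243 in code 0 and 2.72, 0.043 and 0.919 in code 2 and fell by 6.79 on the log2 scale (SE 0.74, limma, adjusted p = 1.06e-04, Mm72050, AT5G07030). A contig of the SAUR family, small proteins induced by auxin, was at 149 and 249.9 in code 0 and 2.68, 1.97 and 0 in code 2 and fell by 6.45 (Mm219290), and an ankyrin contig was at 276 and 305 in code 0 and 3.93, 1.61 and 3.1 in code 2 and fell by 6.28 (Mm165575). A contig like the fermentative enzyme pyruvate decarboxylase 2 was at 126 and 172 in code 0 and 1.62, 0 and 2.08 in code 2 and fell by 6.21 (Mm158108).

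Contigs with the same closest locus mostly moved together, but some moved apart. Of 1228 loci with at least 2 called contigs, 272 (22.1%) had contigs called in both directions, and of 461 loci with at least 2 stable contigs 71 (15.4%) did. In 21 loci both contigs of such a pair reached a mean of at least 50 in code 0 or code 2. For LOX2, a lipoxygenase of jasmonate synthesis, Mm13 was at 1.85 and 1.59 in code 0 and 933, 386 and 264 in code 2. In code 2 it rose by 7.4 on the log2 scale (SE 0.46, limma, adjusted p = 8.08e-06, Mm13, AT3G45140). Mm2881 was at 1033 and 669.7 in code 0 and 33.2, 35.6 and 30.00 in code 2 and fell by 4.62 on the log2 scale (SE 0.57, limma, adjusted p = 2.24e-04, Mm2881, AT3G45140). The 16 contigs like LOX2 summed to 1886 and 876 in code 0 and 1432, 637 and 456 in code 2, groups that overlapped, and the sum was not called (log2 difference -0.78, limma over summed loci, adjusted p = 0.272).

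The LOX3 contigs behaved alike: Mm1011 was at 0.567 and 0.739 in code 0 and 384, 140.5 and 109 in code 2 and rose by 6.78 (Mm1011), Mm12238 was at 719.6 and 317 in code 0 and 24.5, 21.4 and 21.9 in code 2 and fell by 4.34 (Mm12238), and the sum of 17 contigs differed by -0.61 and was not called (limma over summed loci, adjusted p = 0.490). Of glutamate decarboxylase contigs, Mm1204 was at 0.772 and 0.793 in code 0 and 371, 163 and 164 in code 2 and rose by 6.92 (Mm1204), and Mm9527 was at 102 and 142 in code 0 and 28.3, 38.4 and 52.5 in code 2 and fell by 1.62 (Mm9527). The glyoxalase contig Mm303612 fell by 5.53 (Mm303612) while the sum of its 8 contigs rose by 2.63 (limma over summed loci, adjusted p = 0.00385). With values summed over all 12123 loci, limma called 2757 (22.7%), 1151 higher and 1606 lower. Whether such contigs are gene copies, alleles, splice forms or parts of 1 transcript was not tested.

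**Figure D5:**
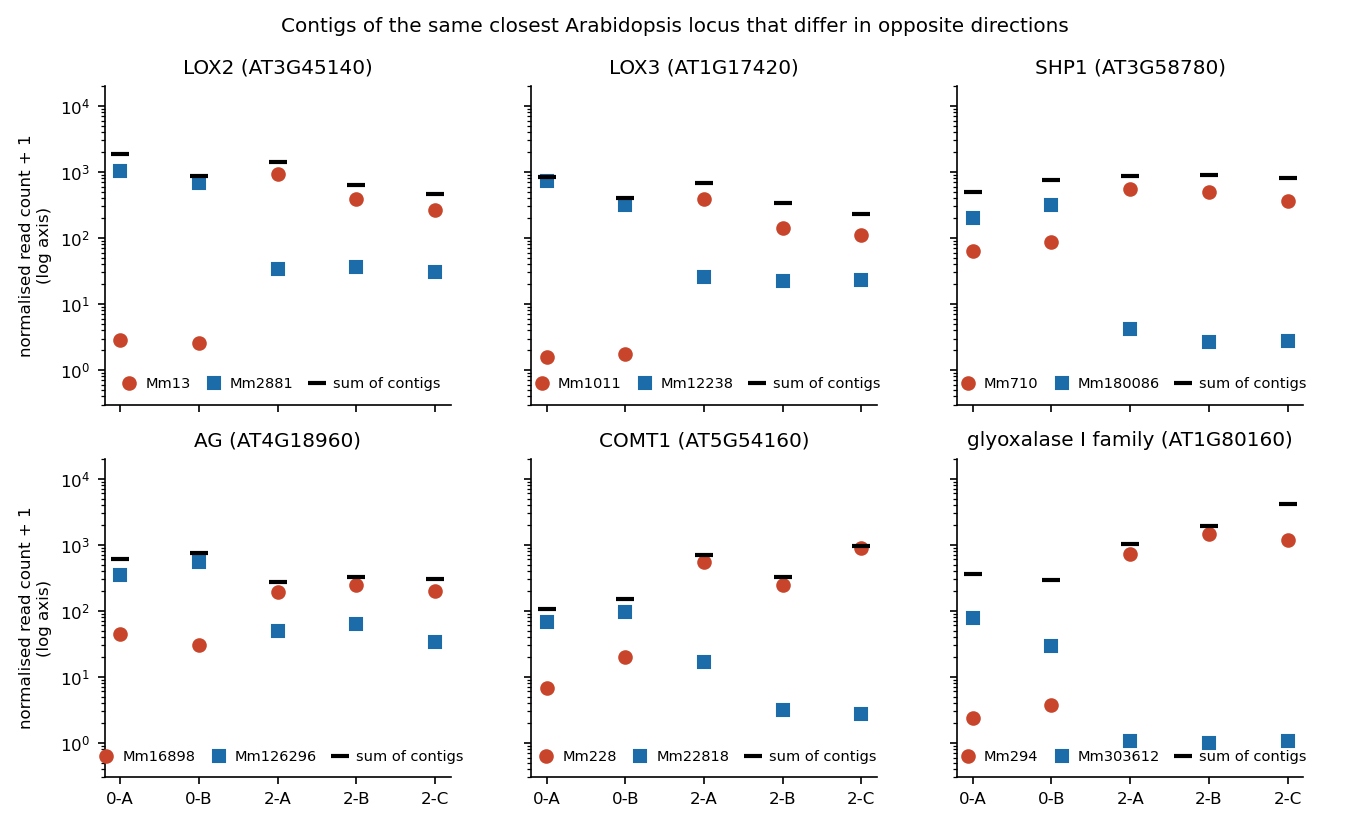
Normalised read count + 1 on a log axis in the 5 libraries for 6 loci, with a contig that rose (red), a contig that fell (blue) and the sum of all contigs of the locus (black bar). The sums for LOX2, LOX3 and SHP1 were not called, that for AG fell by 1.16, and those for COMT1 and the glyoxalase family rose by 2.26 and 2.63.

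Within code 2 the called contigs did not share 1 order of libraries. Among the 2990 higher contigs, 2-A was the highest library of code 2 in 1209, 2-B in 899 and 2-C in 882, and among all contigs tested in 7728, 10030 and 8295. Leaving out 2-A gave 510 calls, 300 higher and 210 lower, that the full fit did not make. The sugar list differed little among the 3 libraries, whereas CWINV2, UGT84A2, DHS1, F3H and the mean of the laccases were highest in 2-A and lowest in 2-C, and the ferritins FER2 and FER4 were highest in 2-C. The letters name libraries only, so no order in time is implied.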

How the data were processed

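RNA from 11 libraries was sequenced by the authors, and the deposited table gives 1 column per library. The submitters' processing notes list kallisto 0.46.1 among the tools. The deposited values are normalised read counts, a signal that the authors scaled before deposit. How they were scaled, how the contigs were assembled and how the listed contigs were chosen are not given in the sources used here. Since raw counts are another unit, no count model was used, the depth in reads is unknown, and shares refer to the contigs of this table only. A value of 0 can be a failed estimate.

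Contigs that reached 10 or more in at least 2 of the 11 columns were kept. A mean per library code was fitted with limma 3.58.1 (R 4.3.3, eBayes with trend) on log2(value + 1), a scale that understates the change of low values. All 11 libraries entered the fit to share 1 estimate of the spread. The test of code 2 minus code 0 was two-sided, with Benjamini-Hochberg adjustment over 26053 contigs. It was also run on simulated data in which the codes differed in only a small set of contigs. The real codes differed in many, so that run gives no error rate for these data. A call needed adjusted p below 0.05 and a difference of 1 or more in size. Where a whole code is at 0 no fold is given. Summaries used Python 3.11.15 with pandas 2.3.3 and figures matplotlib 3.10.9.

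The comparison, the lists and the rules were chosen with earlier results of these data known. Per list and direction the 3 stable contigs with the largest differences were named, 1 per locus, at a code mean of at least 50 and with no overlap of the codes, and also the contig with the highest mean. The 12 largest rises and falls and the 2 largest in each transcription factor family and direction completed the rule, and the text gives part of them. A further 48 contigs outside this rule, most of them in the text, were chosen after their values were seen, as were the pairs of contigs of 1 locus. Alternatives were the pseudocount, the filter, other scalings, library weights, fewer libraries, a replicate block, sums by locus, the filed groups, and leaving out each library of code 0 and code 2 in turn.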

Additional observations from a re-analysis of the deposited data

How the results depend on the processing

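The count of 6252 called contigs, 2990 higher and 3262 lower, stayed within 1.5 times at equal totals (6510 called), after median ratio scaling (6263), with a pseudocount of 0.1 (5619) and with library weights (7871). With only the 5 libraries of both codes it was 4075, 1911 higher and 2164 lower. Without a filter on low values 11502 of 68650 were called, 4714 higher and 6788 lower, and with a filter of 50 it was 1954 of 6818, 1094 higher and 860 lower. Summed by locus 2757 of 12123 were called, 1151 higher and 1606 lower. Leaving out each library in turn gave 3299 to 7208 called, 1599 to 3710 higher and 1597 to 3498 lower. Grouped by the filed labels, limma called 0 contigs, 0 higher and 0 lower, with 5277 at an unadjusted p under 0.05. No contig called both as deposited and in one of these fits turned its sign. The balance of higher and lower calls did turn, to more higher than lower, after median ratio scaling (3155 and 3108), with library weights (4146 and 3725), with the filter of 50, without 0-B (1702 and 1597) and without 2-C (3710 and 3498). Of 220 named contigs, 11 lost their call with only 5 libraries, 8 without 0-A and 8 without 0-B. The cause was not tested.

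The letters A and B occur in both codes, but nothing says that they pair libraries. With the letter as a replicate block 6383 contigs were called, 2899 higher and 3484 lower, of which 5746 were called without it. The deviation of 0-A from its code mean correlated with that of 2-A at 0.128, of 2-B at 0.0186 and of 2-C at -0.122 across contigs, which are not independent. With 2 libraries in code 0 and unknown depth, small differences and low contigs were not resolved.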
